A study of Mus musculus with 6 samples.

Results

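The genes of the transcription factor NF-κB and of its IκB inhibitors were examined in the RNA-seq of bone marrow HSPCs, as the entries of the gene table that carry 1 of 10 symbols, among 23999 entries in all. They are the 5 Rel-homology subunits Nfkb1, Nfkb2, Rel, Rela and Relb and 5 IκB genes, of which Nfkbia, Nfkbib and Nfkbie are classical and Nfkbiz and Bcl3 atypical. All 10 had a mean normalized count of at least 1 and were tested. The sorted population was Lin-Sca-1+c-Kit+, called LSK, which is the bone marrow fraction with the stem cells and the earliest progenitors. It came from C57BL/6 mice of 6 to 8 weeks without treatment. The groups were 3 libraries of Wildtype mice and 3 of Mirc11-/- mice, which lack the gene cluster of miR-23a, miR-27a and miR-24-2. Each library came from 1 RNA preparation of cells from 3 to 4 mice, so that p-values rest on the spread between pools of mice. No Cre driver is named for the deletion, all 6 libraries carry the same batch label, and the legend of a figure in the study gives the sequenced cells as Sca1-negative, against the text and the labels.

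NF-κB dimers of Rel-homology subunits are held in the cytoplasm by IκB proteins, and signals from TNF, interleukin-1 or Toll-like receptors activate the IκB kinase (IKK), which marks the classical IκBs for degradation and frees the dimers. A second, noncanonical route processes the product of Nfkb2 and releases dimers that hold RelB. The genes of several IκBs and subunits are themselves activated by NF-κB, which gives the pathway its feedback, and in HSPCs the pathway is known for its part in inflammatory signaling and myeloid output.

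The values, called normalized counts here, are whole reads scaled by 1 factor for each library. A wildtype library held 15772826 to 16250826 reads in genes, and a Mirc11-/- library 15029379 to 17051541. Reads on Mir23a, Mir27a and Mir24-2 summed to 51, 54 and 73 in the wildtype and to 0 in the Mirc11-/- libraries, which is the check of the labels. Kit, the stem cell factor receptor, was at 8577 to 9416 normalized counts in wildtype and 6644 to 9950 in Mirc11-/- libraries. Cd3e, of the T cell receptor complex, was at 0 in every wildtype library but not in every Mirc11-/- library. The 10 T and NK cell markers, Cd3e among them, summed to 3211 to 3552 in wildtype and 1735 to 3275 in Mirc11-/- libraries. None of these markers was at 0 in every library. The 14 LSK markers summed to 44639 to 52629 in wildtype and 29772 to 52124 in Mirc11-/- libraries (median log2 fold change -0.20). Of the 14, 11 had a negative log2 fold change, against 49.5% of all genes. At an unadjusted p under 0.05 limma gave 3 of them as lower, against 4.09% of all genes. Markers of other cell types moved with the groups in part. The 20 erythroid markers summed to 26328 to 36032 and 27997 to 62309, with 20 of 20 positive log2 fold changes (median 0.84), and their median stood 1.37, 1.29 and -0.15 on the log2 scale from the wildtype mean in Mirc11-/- libraries 1, 2 and 3. The median log2 fold change was 0.002 for 17 neutrophil and monocyte, -0.62 for 8 macrophage, 0.48 for 11 B cell, -0.34 for 8 T and NK cell, 0.47 for 6 mast cell and basophil, 0.17 for 7 megakaryocyte and 0.14 for 6 stromal and endothelial markers. Of the 97 tested markers, limma and edgeR called 0 and DESeq2 called 1 higher, where it called 0.236% of all genes higher. The unadjusted p of limma was under 0.05 for 7 lower and 17 higher ones, against 4.09% and 4.15% of all genes. Without Mirc11-/- library 3 limma called 17 of the 20 erythroid markers higher, where it called 1.63% of all genes higher. In the same fit it called 3 of the 14 LSK markers lower, where it called 1.11% of all genes lower. Among them were Cd34 and Flt3, with log2 fold changes of -0.43 and -0.49 in the fit of all 6 libraries. In bulk RNA, fewer cells of a type and less RNA per cell cannot be told apart.

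All 10 NF-κB and IκB genes had a lower mean log2 level in Mirc11-/- than in wildtype HSPCs. For none of them was the p of the main limma fit under 0.05 after adjustment over all 15662 genes tested. A negative log2 fold change was found for 10 of 10, against 49.5% of all genes, and their median was -0.18, against 0.002 over all genes. Limma called 0 of the 10, where it called 0.0255% of all genes lower and 0.00638% higher. None of the 10 was called by edgeR, which called 0.0192% of all genes lower, or by DESeq2, which called 0.543% lower. At an unadjusted p under 0.05 limma gave 2 of the 10 as lower, Nfkbiz and Nfkb2, against a background of 4.09% of genes, while edgeR and DESeq2 each gave 3, with Nfkbia in addition, against 4.01% and 3.6% of genes. Every Mirc11-/- library was below every wildtype library for 3 of the 10, Nfkbiz, Nfkb1 and Nfkb2, and the same held for 6.53% of all genes. An exact two-sided permutation test of 3 libraries against 3 cannot go below 0.1, and it gave 0.1 for these 3 genes and 0.3 to 1 for the others. With each library left out in turn, limma called 0 of the 10, and 8 to 10 had a negative log2 fold change. Without Mirc11-/- library 3, whose erythroid markers lay at the wildtype level, limma called 1.11% of all genes lower and again 0 of the 10, with 9 negative.

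**Figure D1:**
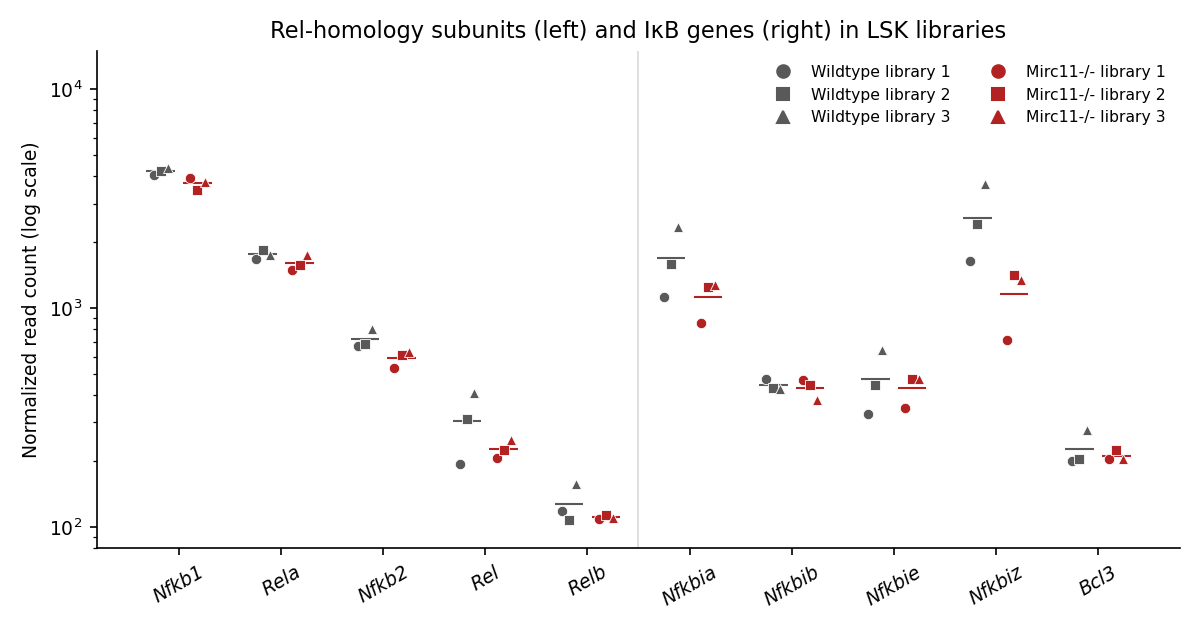
Normalized read count (y axis, logarithmic) of the 10 genes in the 6 LSK libraries, with the Rel-homology subunits on the left and the IκB genes on the right. Gray shows wildtype and red Mirc11-/-, the marker shape the library number, and each bar a group mean of 3. The groups are apart for Nfkb1, Nfkb2 and Nfkbiz and overlap for the other 7.

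Among the subunits, Rela, which encodes p65, the main transactivating subunit of the canonical pathway, and Nfkb1, which encodes p105 and its product p50, had the highest counts and varied least between wildtype libraries. Nfkb1, on chromosome 3 from 135584655 to 135691969 (GRCm38.p6), was at 4053, 4247 and 4356 normalized counts in wildtype and 3951, 3481 and 3785 in Mirc11-/- libraries 1, 2 and 3. All 3 Mirc11-/- values lay below the lowest wildtype value, and the narrowest gap was between wildtype library 1 and Mirc11-/- library 1. The log2 fold change, Mirc11-/- minus wildtype on log2(normalized count + 1) here and below, was -0.18 (SE 0.078, 95% interval -0.35 to 0.0019, adjusted p = 0.600 by limma).

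Rela, on chromosome 19 from 5637442 to 5648134, was at 1684, 1844 and 1746 normalized counts in wildtype and 1494, 1568 and 1755 in Mirc11-/- libraries. Mirc11-/- library 3 was above 2 of the 3 wildtype libraries, so the groups overlap. Rela had a log2 fold change of -0.13 (SE 0.088, 95% interval -0.33 to 0.066, adjusted p = 0.686 by limma). A fall of Rela by more than 0.33 on the log2 scale lies outside that interval.

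Nfkb2, which encodes p100 and p52 of the noncanonical pathway, lies on the same chromosome from 46300994 to 46312400. Its normalized count was 669.6, 689 and 802 in wildtype and 529.6, 609 and 628 in Mirc11-/- libraries, again without overlap. Limma gave it a log2 fold change of -0.29 (SE 0.11, 95% interval -0.54 to -0.034, unadjusted p = 0.0307, adjusted p = 0.566 by limma). Psd, a gene that overlaps Nfkb2 in the annotation, was at a mean of 190.1 normalized counts with a log2 fold change of -0.04 (SE 0.23). Reads of the 2 genes may be shared, since no strand setting is given, and the value of Nfkb2 is uncertain to that extent.

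Rel, the c-Rel gene of lymphoid and myeloid cells, on chromosome 11 from 23736847 to 23770969, spread more than any other subunit in wildtype. Its wildtype values were 193, 312 and 410.4 normalized counts, a range of 2.12-fold, and its Mirc11-/- values 207, 225 and 249.5, a range of 1.20-fold. The Mirc11-/- libraries lay within the wildtype range, and the log2 fold change of -0.36 (SE 0.25, 95% interval -0.92 to 0.20, adjusted p = 0.695 by limma) went from -0.66 without wildtype library 1 to -0.11 without wildtype library 3.

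Relb, which encodes the partner of p52, on chromosome 7 from 19606217 to 19629438, was the subunit with the fewest reads. Wildtype libraries had 118, 107 and 157 normalized counts and Mirc11-/- libraries 109, 113 and 109.7. Wildtype library 3 stood above the other 5, which lay between 107 and 118. The log2 fold change was -0.19 (SE 0.19, 95% interval -0.62 to 0.25, adjusted p = 0.802 by limma), and -0.03 without wildtype library 3.

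Among the IκB genes, Nfkbiz had the largest difference of the 10 members. It encodes IκBζ, an atypical IκB of the nucleus that acts on secondary response genes such as those of interleukin-6 and lipocalin 2, and lies on chromosome 16 from 55811375 to 55838954. Its normalized count was 1634, 2428 and 3678 in wildtype and 711, 1424 and 1339 in Mirc11-/- libraries. The highest Mirc11-/- value was below the lowest wildtype value, and the highest library was 2.25-fold above the lowest in wildtype and 2.00-fold in Mirc11-/-. The level in Mirc11-/- was 0.453 times that of wildtype, a log2 fold change of -1.14 (SE 0.32, 95% interval -1.87 to -0.41, unadjusted p = 0.00634, adjusted p = 0.444 by limma). By p it ranked 221 of all genes tested. Over the alternatives the adjusted p went from 0.0150, in a fit with the replicate number as a block that called 0.172% of all genes lower, to 0.998, and over the libraries left out in turn the log2 fold change went from -1.43 to -0.82.

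Nfkbia encodes IκBα, the inhibitor that NF-κB induces most directly as its own brake, on chromosome 12 from 55489409 to 55492647. The wildtype libraries had 1127, 1584 and 2354 normalized counts and the Mirc11-/- libraries 854, 1244 and 1271. Mirc11-/- library 1 was the lowest of all 6, while libraries 2 and 3 lay inside the wildtype range. Its difference on the log2 scale was -0.55 (SE 0.25, 95% interval -1.12 to 0.027, adjusted p = 0.605 by limma). It went from -0.80 without wildtype library 1 to -0.27 without wildtype library 3, and was -0.36 without Mirc11-/- library 1.

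Nfkbie, which encodes IκBε, a slower feedback inhibitor, on chromosome 17 from 45555700 to 45563169, was at 327, 446 and 645.5 normalized counts in wildtype and 349, 472.5 and 474 in Mirc11-/- libraries. The wildtype range of 1.97-fold held all 3 Mirc11-/- values. The log2 fold change of -0.09 (SE 0.23, 95% interval -0.62 to 0.44, adjusted p = 0.938 by limma) turned to 0.16 without wildtype library 3 and to 0.057 without Mirc11-/- library 1.

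Nfkbib, the gene of IκBβ, on chromosome 7 from 28758251 to 28766644, was the most even of the IκB genes. Its values were 475, 432 and 427 normalized counts in wildtype and 467, 444.5 and 378 in Mirc11-/- libraries. It differed by -0.05 on the log2 scale (SE 0.12, 95% interval -0.32 to 0.22, adjusted p = 0.929 by limma) and 0.037 without Mirc11-/- library 3, the lowest of the 6.

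Bcl3, which encodes an atypical IκB that binds p50 and p52 homodimers in the nucleus, lies on chromosome 7 from 19808462 to 19822824. Its values were 199, 204 and 279 normalized counts in wildtype and 205, 225 and 204 in Mirc11-/- libraries. Apart from wildtype library 3, the libraries lay between 199 and 225. The log2 fold change was -0.09 (SE 0.16, 95% interval -0.46 to 0.28, adjusted p = 0.905 by limma), and 0.067 without wildtype library 3.

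**Figure D2:**
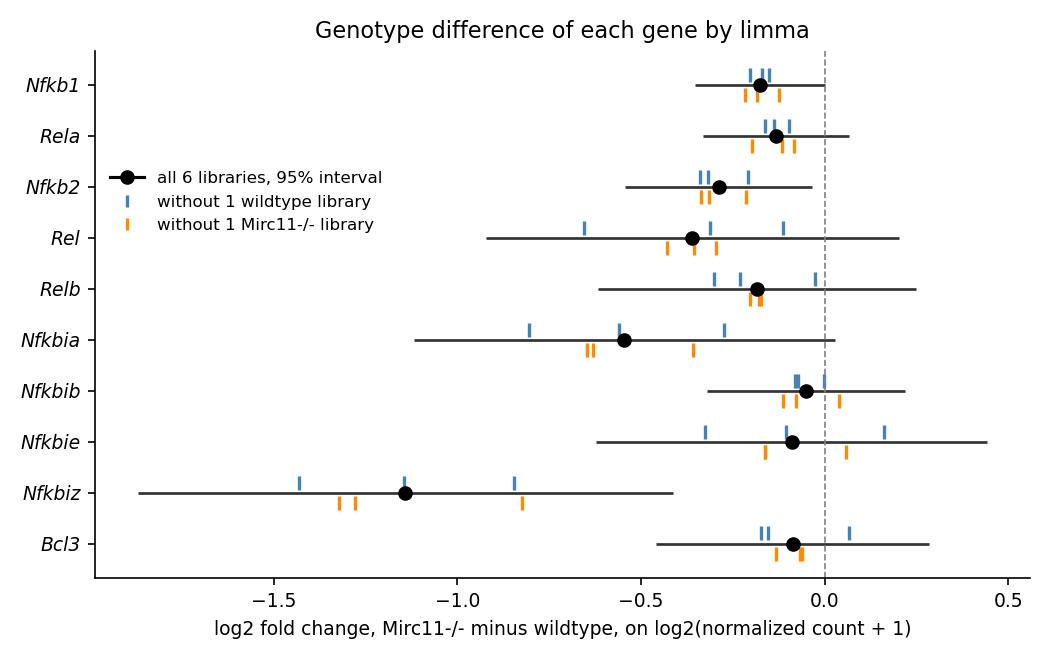
Log2 fold change of each gene by limma (Mirc11-/- minus wildtype, on log2(normalized count + 1)). Black points and lines give the estimate and its 95% interval from all 6 libraries, blue ticks the estimates without 1 wildtype library and orange ticks those without 1 Mirc11-/- library. The intervals of Nfkbiz and Nfkb2 lie below 0, and the ticks of Nfkbib, Nfkbie and Bcl3 fall on both sides of 0.

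The members ranged from steady to variable within the wildtype group. The highest wildtype library was 1.07-fold above the lowest for Nfkb1, 1.09-fold for Rela, 1.11-fold for Nfkbib and 1.20-fold for Nfkb2. It was 1.97-fold above for Nfkbie, 2.09-fold for Nfkbia, 2.12-fold for Rel and 2.25-fold for Nfkbiz, with Bcl3 at 1.40-fold and Relb at 1.47-fold between. Over the 10 members the median was 1.43-fold, and over 10553 genes with a mean of at least 100 normalized counts it was 1.16-fold, with 0.787% of these genes at or above the range of Nfkbia and 0.540% at or above that of Nfkbiz. Counting error alone was 1.5% to 9.6% of a member's value per library. Wildtype library 3 was the highest of its group for 8 of the 10 members and wildtype library 1 the lowest for 8. Mirc11-/- library 1 was the lowest of its group for 7. The share of all genes with these extremes was not computed, so the counts cannot be read as a trait of the members.

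The immediate-early genes, which cells switch on within minutes of a stimulus or of tissue handling, were highest by their median in wildtype library 3. Within each group they were lowest in library 1. Their 39 genes, among them Fos and Egr1, stood at a median of -0.41, 0.06 and 0.37 on the log2 scale from the wildtype mean in wildtype libraries 1, 2 and 3, and at -1.13, -0.66 and -0.71 in the Mirc11-/- libraries. Their summed normalized count was 230152 to 344273 in wildtype and 104302 to 165803 in Mirc11-/- libraries. The median of the 10 NF-κB and IκB genes was -0.14, -0.03 and 0.31 in wildtype and -0.31, -0.20 and -0.19 in Mirc11-/- libraries. The part of the immediate-early genes in the difference of Nfkbiz, Nfkbia or Rel cannot be told apart from the genotype, because their medians do not overlap between the groups. With their mean as a covariate in limma, 4 of the 10 members had a negative log2 fold change, Nfkbiz had 0.029 and Nfkbia 0.38, and limma called 0 of all genes. When the erythroid markers served as the covariate instead, 9 of the 10 were negative, with Nfkbiz at -0.66 and Nfkbia at -0.18.

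**Figure D3:**
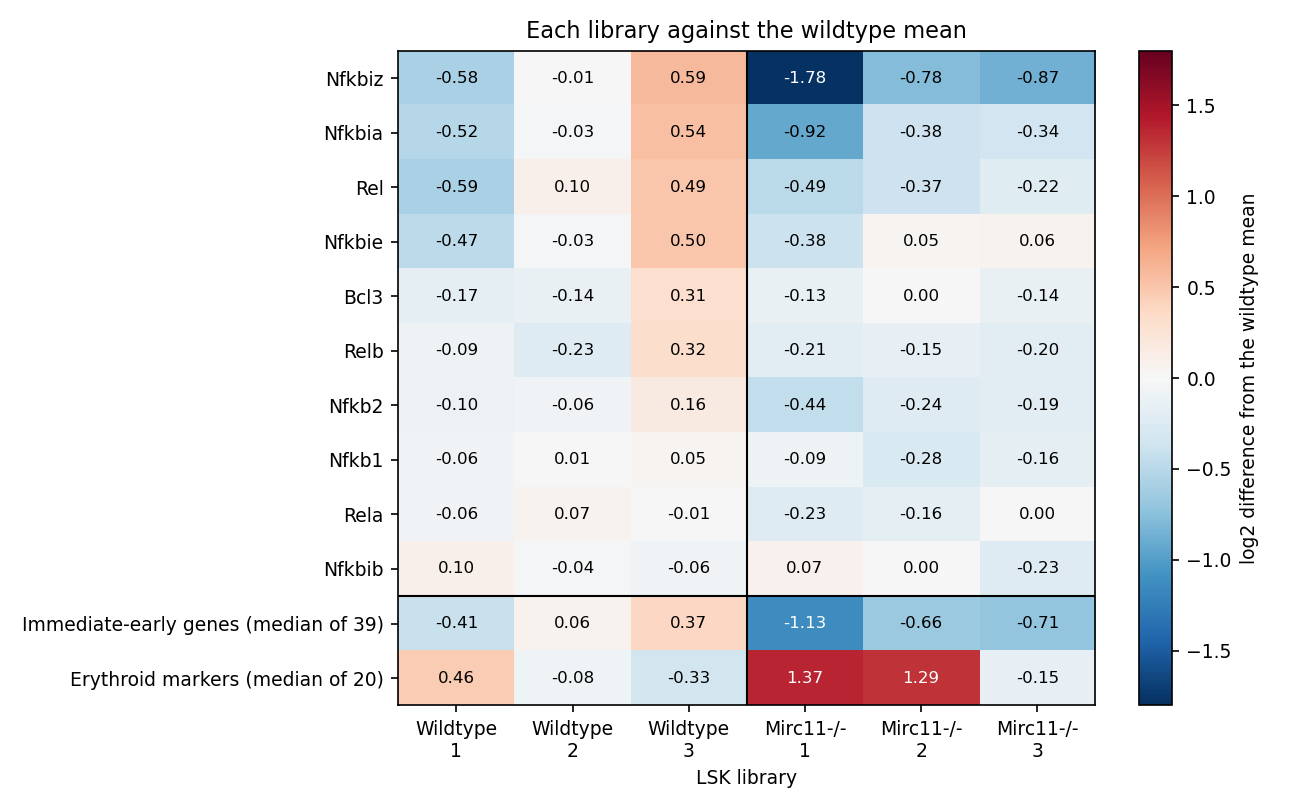
Log2 difference of each library from the wildtype mean, for the 10 genes (rows above the line) and for the median of 39 immediate-early genes and of 20 erythroid markers (rows below it). Columns are the 3 wildtype and 3 Mirc11-/- LSK libraries, and the color scale and the printed number give the same value. Nfkbiz, Nfkbia, Rel and Nfkbie run from negative in wildtype library 1 to positive in wildtype library 3, as the immediate-early genes do, while Nfkb1, Rela and Nfkbib stay close to 0 there.

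The genes nearest to each member were taken by the pattern over the 6 libraries, with each gene centered on its own mean. Every gene has nearest genes, and a steady gene is near to many, so this is a description. On the same scale, the root mean square deviation of a member from its own mean was 0.736 for Nfkbiz, 0.451 for Nfkbia, 0.372 for Rel and 0.107 for Nfkb1. Among 11403 genes with a mean of at least 50 normalized counts, the 3 nearest to Nfkbia were Zc3h12a, a ribonuclease gene of inflammatory mRNA decay, the apoptosis gene Bbc3 and the cytokine gene Tnf, at root mean square log2 differences of 0.102, 0.123 and 0.127. For Nfkbiz they were the transcription factor gene Egr1 (0.151), the phosphatase gene Dusp1 (0.178) and the chemokine gene Ccl4 (0.181). For Nfkbie they were Tob1 (0.0746), Psd (0.0836) and 5430405H02Rik (0.0871), and for Rel they were Zfp36l1 (0.102) and the pair Gm4070 and Gvin1 (0.105 each), whose values are the same in every library. The steady members were nearest to Lman2l, Twf2 and Ambra1 for Nfkb1, Fam193b, Pgm2 and Srsf6 for Rela, and Aaas, Grhpr and Lcmt1 for Nfkbib. The nearest were 2410006H16Rik, Atp10d and Myo10 for Nfkb2, Trerf1, Csf2rb2 and E230016M11Rik for Relb, and Pld3, Lss and Cdk6 for Bcl3.

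Compared per length, as normalized counts per kilobase of the longest protein-coding transcript, Nfkbia and Nfkb1 had the highest levels in wildtype HSPCs. Nfkbia was at 1070 ± 393 and Nfkb1 at 1025 ± 37.3 (SD, n = 3 here and below), with overlapping values. Rela followed at 647 ± 29.6 and Nfkbiz at 627 ± 250, which overlap each other, while every Nfkb1 value was above every Rela value. Nfkbib at 216 ± 13.0, Nfkbie at 194 ± 66.0 and Nfkb2 at 187 ± 18.5 formed a middle group in which neighbors overlap, below Nfkbiz in every wildtype library. Bcl3 at 123 ± 24.0 was apart from Nfkb2 above it and from Relb at 57.7 ± 11.9 below it, and Relb overlapped Rel, the lowest, at 40.9 ± 14.6.

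**Figure D4:**
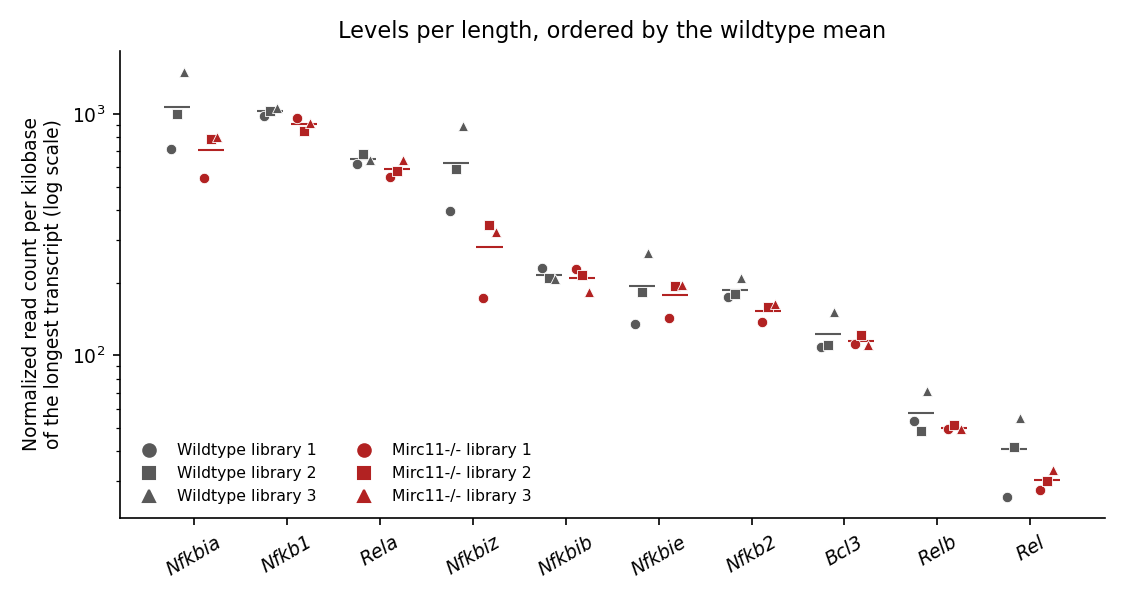
Normalized read count per kilobase of the longest transcript in each library, on a log scale, with genes ordered by the wildtype mean (bars are group means of 3 libraries, markers as libraries). Nfkbia and Nfkb1 are at the top, with wildtype means of 1070 and 1025, and Relb and Rel at the bottom, with 57.7 and 40.9.

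The shares of the subunits in their summed mRNA overlapped between the genotypes. Of the summed level per length of the 5 subunits, Nfkb1 made up 52.4 ± 0.544% in wildtype and 52.4 ± 2.80% in Mirc11-/- libraries, and Rela 33.1 ± 1.38% and 34.1 ± 1.96%. Nfkb2 had 9.55 ± 0.617% and 8.84 ± 0.781%, Relb 2.94 ± 0.524% and 2.89 ± 0.174%, and Rel 2.07 ± 0.655% and 1.76 ± 0.129%. Each difference between these means was smaller than the larger of the 2 SDs. The classical IκB genes Nfkbia, Nfkbib and Nfkbie had a summed level of 0.581, 0.705 and 0.965 times that of the subunits in wildtype libraries and of 0.528, 0.721 and 0.653 times in Mirc11-/- libraries. The ratio was highest in wildtype library 3 and lowest in Mirc11-/- library 1, and the groups overlap.

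The miRNAs of the deleted cluster were compared with the 3′ UTRs of the members, since a direct target may carry a match to a seed. For each gene 1 annotated 3′ UTR, the longest, was searched, and no other part of the transcript. The seed is taken as bases 2 to 8 of the mature miRNA. A match of 7 nucleotides pairs with bases 2 to 8, or with bases 2 to 7 and ends in an A, as 1 in Rel does. A match of 8 nucleotides pairs with bases 2 to 8 and ends in an A. The study names a paralog cluster that codes for miR-23b, miR-27b and miR-24-1, and mature miRNAs were not measured here. The mature sequences below are those of RefSeq for the 3 miRNA genes of the deleted cluster. They run 5′ to 3′ with the seed in capitals, and miR-23a-3p and miR-27a-3p share the start of their seeds:
miR-23a-3p: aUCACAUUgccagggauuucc
miR-27a-3p: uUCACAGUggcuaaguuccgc
miR-24-3p: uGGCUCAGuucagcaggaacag
A match of at least 7 nucleotides was found in the 3′ UTR of 4 of the 10 members, Nfkb2, Rel, Nfkbib and Bcl3, against 52.2% of 13558 tested genes with an annotated 3′ UTR. The members held 7 matches in all, 0.584 per kilobase of 3′ UTR, and all genes 0.673 per kilobase. Of the 7 matches in the members, 2 were of 8 nucleotides, 1 each in Nfkb2 and Nfkbib, and 19.0% of all genes had 1 or more. They are shown with the bases around them, with the match in capitals, as the longest in the family:
Nfkb2 with miR-24-3p, 3′ UTR bases 532 to 539 of 634: ggcuucuguCUGAGCCAggccccagg
Nfkbib with miR-27a-3p, 3′ UTR bases 399 to 406 of 763: ucgauggccACUGUGAAuagcagcuc
Nfkbiz, Nfkbia, Nfkb1, Rela, Relb and Nfkbie had 0 matches. The genes with a match had log2 fold changes of -0.29 (Nfkb2), -0.36 (Rel), -0.05 (Nfkbib) and -0.09 (Bcl3) in Mirc11-/- against wildtype cells. A match is a run of letters and was not tested as a site.

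The promoters were searched for the κB consensus, the 10-base motif that NF-κB dimers bind, on both strands, from 250 bases before to 50 after the start site. Of the 7 members with a promoter in the RefSeq table used, 5 held a match, Nfkbia, Nfkbie, Rel, Nfkb2 and Bcl3, while Rela and Nfkbib did not. Over all 32817 promoters the share was 4.50%, and 6.31% of 11290 tested genes with a promoter held one. The promoters of the 4 members named first are shown because 3 of them are among the most variable members and Nfkb2 is 1 of the 3 genes whose groups do not overlap. They are written 5′ to 3′ on the strand of the gene in GRCm38.p6, with the matches in capitals:
Nfkbia, chr12:55492598-55492897, minus strand: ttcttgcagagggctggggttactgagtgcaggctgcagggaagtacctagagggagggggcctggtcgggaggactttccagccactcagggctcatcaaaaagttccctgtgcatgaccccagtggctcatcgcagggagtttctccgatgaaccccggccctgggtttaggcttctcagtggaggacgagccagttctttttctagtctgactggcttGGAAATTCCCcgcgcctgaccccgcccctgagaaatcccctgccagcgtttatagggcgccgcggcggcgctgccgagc
Nfkbie, chr17:45555450-45555749, plus strand: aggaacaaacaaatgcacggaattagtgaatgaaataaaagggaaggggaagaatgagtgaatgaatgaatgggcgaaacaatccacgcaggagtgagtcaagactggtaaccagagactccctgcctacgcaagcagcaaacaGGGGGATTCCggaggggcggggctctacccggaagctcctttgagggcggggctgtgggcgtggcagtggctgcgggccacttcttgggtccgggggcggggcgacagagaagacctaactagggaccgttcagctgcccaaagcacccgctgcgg
Rel, chr11:23770920-23771219, minus strand: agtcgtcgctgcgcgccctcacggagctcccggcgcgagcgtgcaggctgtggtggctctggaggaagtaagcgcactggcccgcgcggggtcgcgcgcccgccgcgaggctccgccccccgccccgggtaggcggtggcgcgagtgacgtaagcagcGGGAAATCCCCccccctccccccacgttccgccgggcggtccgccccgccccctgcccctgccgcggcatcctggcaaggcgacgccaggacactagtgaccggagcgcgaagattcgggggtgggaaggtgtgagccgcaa
Nfkb2, chr19:46304487-46304786, plus strand: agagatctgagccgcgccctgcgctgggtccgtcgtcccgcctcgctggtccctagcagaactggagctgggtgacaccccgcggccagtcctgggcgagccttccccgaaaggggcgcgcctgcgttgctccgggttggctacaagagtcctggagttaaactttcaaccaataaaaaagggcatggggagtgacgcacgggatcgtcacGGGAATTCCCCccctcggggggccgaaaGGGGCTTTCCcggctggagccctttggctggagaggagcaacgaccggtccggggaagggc
The match of Nfkbia begins 29 bases before the start site and that of Nfkbie 106 bases before it. In Rel, matches on both strands overlap from 92 bases before the start site. In the Nfkb2 promoter shown, overlapping matches begin 39 bases and another 11 bases before the start site, and the promoters of its 2 further start sites held matches too. In Bcl3 the match begins at base 3 after the start site. The highest wildtype library was 1.20- to 2.12-fold above the lowest for the 5 genes with a match, and 1.09- and 1.11-fold for Rela and Nfkbib, a description of 7 genes with no test. Nfkb1, Relb and Nfkbiz, which had no promoter to search, were at 1.07-, 1.47- and 2.25-fold, so the steadiest and the most variable member are missing from it. No factor was measured at these sequences.

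The genes around the family were taken by role, as lists, and limma and edgeR called 0 genes in each, adjusted over all genes tested, as DESeq2 did in the lists of partners, upstream genes and ubiquitin editors. Of 12 other IκB and Rel partners, 6 had a negative log2 fold change (median -0.004). By limma 1 was lower at an unadjusted p under 0.05, against 4.09% of all genes. This was Nfkbid, which encodes IκBNS, an atypical IκB, at 645, 1263 and 1315 normalized counts in wildtype and 581, 710.3 and 577 in Mirc11-/- libraries. Wildtype library 1 lay among the Mirc11-/- libraries, and the log2 fold change was -0.72 (SE 0.25, adjusted p = 0.502 by limma). The next by p, Pias1 at 0.09, Nkapl at 0.62 and Nkrf at 0.13, had positive log2 fold changes.

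Upstream, 19 of 37 genes of IKK and its activators had a negative log2 fold change (median -0.01). Of the 37, 1, Map3k14, was lower at an unadjusted p under 0.05 by limma, against 4.09% of all genes. Map3k14 encodes NIK, the kinase of the noncanonical pathway that acts on the product of Nfkb2. It was at 714, 720.5 and 775 normalized counts in wildtype and 451, 529 and 616 in Mirc11-/- libraries, all 3 below wildtype. Its log2 fold change was -0.48 (SE 0.12, adjusted p = 0.431 by limma), and without Mirc11-/- library 3 limma called it (adjusted p = 0.0295). In that fit limma called 1.11% of all genes lower. The adjusted p was 0.107 by DESeq2 and 0.124 by limma with the replicate number as a block. Fits without another library are not given for this gene, so its range cannot be set against those of the members. Sharpin of the linear ubiquitin ligase had -0.18, the kinase genes Irak2 and Map3k8 0.25 and -0.34, and the adaptor gene Traf6 0.15, none of them past an unadjusted p of 0.05.

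Of 20 ubiquitin editors and other brakes of the pathway, 13 had a negative log2 fold change (median -0.11). At an unadjusted p under 0.05 by limma, 4.09% of all genes were lower and 4.15% higher. In this list 3 passed with a lower level and 0 with a higher one. They were Usp18 (-0.67, SE 0.18), Tnfaip3, which encodes the deubiquitinase A20 (-0.72, SE 0.22), and Zc3h12a (-0.69, SE 0.24), with adjusted p of 0.431, 0.479 and 0.505 by limma. Tnfaip3 was at 588, 921 and 1163 normalized counts in wildtype and 464, 603 and 499 in Mirc11-/- libraries, and wildtype library 1 lay below Mirc11-/- library 2. Like Nfkbia, Nfkbid and Zc3h12a, it had its lowest wildtype value in library 1 and its highest in library 3.

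Of 52 known NF-κB target genes, 47 were tested, and 23 had a negative and 24 a positive log2 fold change (median 0.01). At an unadjusted p under 0.05 limma gave 8 as lower and 1 as higher, or 17% and 2.13% of the list, against 4.09% and 4.15% of all genes. DESeq2 called 4 lower, Ccl3 (adjusted p = 2.49e-07), Ccl4 (0.00487), Il15 (0.0262) and Ier3 (0.0403), and 1 higher, Mmp9 (0.0384). It called 0.543% of all genes lower and 0.236% higher, and edgeR called 0 of the list. With the replicate number as a block limma called 1 lower, Ccl3 (adjusted p = 0.0453), where it called 0.172% of all genes lower. Without Mirc11-/- library 3 it called 4 lower, Ccl3 (0.0156), Pim1 (0.0162), Bcl2 (0.0222) and Il15 (0.0419), and 2 higher. In that fit it called 1.11% of all genes lower and 1.63% higher. The chemokine genes Ccl3 and Ccl4 had log2 fold changes of -1.28 (SE 0.19, adjusted p = 0.186 by limma) and -1.06 (SE 0.27, adjusted p = 0.425), the cytokine gene Il15, on the chromosome of Mirc11, -0.79 (SE 0.19) and Ier3, a stress response gene, -0.60 (SE 0.15). Ccl3 was at 838, 1437 and 1146 normalized counts in wildtype and 464, 393 and 524 in Mirc11-/- libraries, without overlap. Pim1 and Bcl2, of cell survival, had -0.46 and -0.48, and Ptgs2, of prostaglandin synthesis, -0.77. Mmp9, a gelatinase gene of neutrophils, was at 16.8, 13.9 and 38.5 normalized counts in wildtype and 86.1, 62.3 and 56.3 in Mirc11-/- libraries, with a difference of 1.64 in log2 (SE 0.39) and an adjusted p of 0.419 by limma. The chemokine gene Ccl20 was at 0 in every library. Of the 39 immediate-early genes, 37 had a negative log2 fold change (median -0.79), against 49.5% of all genes. At an unadjusted p under 0.05 by limma 27 were lower, against 4.09% of all genes. DESeq2 called 22 lower and edgeR 0, where they called 0.543% and 0.0192% of all genes lower. Limma called 12 of the immediate-early genes lower with the replicate block and 9 without Mirc11-/- library 3, against 0.172% and 1.11% of all genes.

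**Figure D5:**
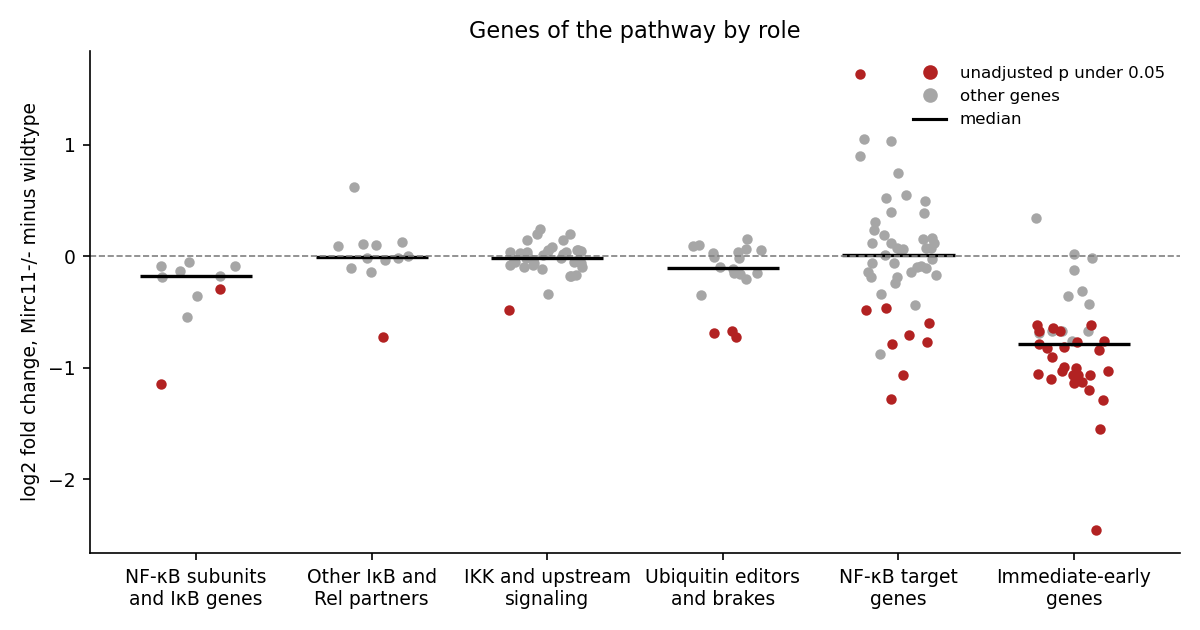
Log2 fold change (Mirc11-/- minus wildtype) of each tested gene in 6 lists, with the list median as a black line and genes with an unadjusted p under 0.05 by limma in red. The members have a median of -0.18, the partner, upstream and target lists have medians of -0.004, -0.01 and 0.01, the ubiquitin editors -0.11, and the immediate-early genes have a median of -0.79.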

How the data were processed

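LSK cells of 3 Wildtype and 3 Mirc11-/- RNA preparations were sequenced, with groups and numbers from the submitters' labels. The processing notes name STAR, Cufflinks and mm10, while the supplementary methods name hg19 and DE-seq. For versions, annotation and strand setting, nothing is stated in the sources used here. The table the authors deposited holds a signal per gene, the gene's reads divided by a library size factor; 100% of values above 0 were whole multiples of 1 read within 0.001, and no length was divided out. R 4.3.3 was used with limma 3.58.1 on log2(value + 1) (mean-variance trend, two-sided, Benjamini-Hochberg, threshold 0.05) for 15662 genes with a mean of at least 1. Count tests on the recovered reads (edgeR 4.0.16, DESeq2 1.42.0) served as alternatives. The main limma fit and these count tests were tested on simulated data, the fits with other settings, a block or a covariate were not. Depth was 15029379 to 17051541 reads in genes.

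The members and lists were chosen with earlier results of these data known. The lists were other IκB and Rel partners, IKK and upstream signaling, ubiquitin editors, NF-κB targets, immediate-early genes and markers of LSK cells and 8 other cell types. Named were the 10 members, the 3 genes nearest to each in pattern, up to 4 genes per list with the smallest p (8 for lists over 30), and the Mirc11 genes. Some genes that the rule selects are given within counts only, and Kit and Cd3e were added after their values were seen. Ly6g and Adgre1 were not analysed here. Transcript lengths and 3′ UTRs came from GENCODE vM21, in place of the planned RefSeq transcripts, and positions, promoters and miRNAs from RefSeq GRCm38.p6. Other settings were pseudocounts of 0.5 and 0.1, no filter and a filter of 10, median-ratio and quantile normalization, no trend, a replicate block, erythroid or immediate-early covariates, exon-union lengths, 8-nucleotide matches and each library left out.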

Additional observations from a re-analysis of the deposited data

How the results depend on the processing

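The log2 fold changes of Nfkb1, Nfkb2 and Rela were negative in every alternative run, but Nfkb2 went to -0.16 with the erythroid and -0.05 with the immediate-early covariate, and Rela to -0.02 and -0.07. Limma called 4 of all genes tested lower and 1 higher. Without a trend it called 2 and 2, with the replicate block 27 and 3, with the immediate-early covariate 0 and 0, and DESeq2 called 85 and 37. Leaving out 1 library gave 0 to 174 lower and 1 to 256 higher, with the highest counts without Mirc11-/- library 3. The cause was not tested. With the replicate block, 1 member was called lower, Nfkbiz (log2 fold change -1.14, adjusted p = 0.0150 by limma). The numbers share no stated source: the deviations of same-numbered libraries correlated at 0.314, -0.276 and 0.340, and not every library correlated best with its own number.

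With the immediate-early covariate, which does not overlap between the groups and so cannot be told apart from the genotype, 4 of the 10 members were negative and the median log2 fold change was 0.058. It turned to 0.44 for Rel, 0.086 for Relb, 0.38 for Nfkbia, 0.74 for Nfkbie, 0.029 for Nfkbiz and 0.28 for Bcl3. Nfkbie was at 0.22 with the erythroid covariate, 0.16 without wildtype library 3 and 0.057 without Mirc11-/- library 1, Nfkbib at 0.037 without Mirc11-/- library 3 and Bcl3 at 0.067 without wildtype library 3. Over the libraries left out, Nfkbib ranged from -0.11, Nfkbie from -0.33 and Bcl3 from -0.17 up to these values. The median of the members stayed between -0.28 and -0.13 over the libraries left out. With the union of exons as the length, Nfkb1 made up 54.2% of the subunits in wildtype and Relb 2.54% in Mirc11-/- libraries, and Rela was at 605 per kilobase. Counting error was 1.5% to 9.6% of a member's value, and for the low counts of Relb and Bcl3 in Mirc11-/- libraries it was as large as the spread between the 3 libraries or larger.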
